A study of Mus musculus with 8 samples.

Results

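The data described here are the RNA sequencing libraries of control livers, 4 of the 8 libraries of a mouse series on AKT, the kinase that carries the insulin signal into glucose and lipid metabolism. All libraries whose titles mark them as control were taken, and no other choice was made. The mice were male C57BL6 animals of the genotype "wild type; C2-AKT (-/-)", that is, without the modified AKT studied in the other 4 libraries. They were fed a high-fat diet for 10 weeks from 8 weeks of age. The labels do not state whether the control mice carried a Cre transgene, nor whether the libraries are from separate animals, so the spread given here may be partly technical. Libraries are named by the number in their titles, control replicates 2, 3, 4 and 5. The titles of 3 libraries end in "_1" and that of replicate 5 does not, and no source used here says what this ending means.

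The liver is built mostly of hepatocytes, which secrete most proteins of blood plasma, clear nitrogen through the urea cycle, make bile acids and store, burn and export fat. Male mice add the major urinary proteins, small pheromone carriers that are made in the liver and passed into urine. The transcripts of a liver therefore belong in large part to a small number of secreted proteins and to the mitochondrial genome, while regulators, receptors and enzymes of inducible pathways are present at low levels. Several of these pathways change within hours, with feeding, time of day or inflammation. No source used here states the hour or the feeding state at collection.

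Total estimated counts were 53.4 M in replicate 2, 51.4 M in replicate 3, 62.2 M in replicate 4 and 55.9 M in replicate 5 (M for mega). Composition is given as a share of the deposited TPM (transcripts per 1000000, a level scaled to transcript length), and spread as the standard deviation (SD) over the 4 libraries of log2 CPM (counts per 1000000). Of 45777 genes in the table, 12070 had a mean of at least 1 TPM. Each library held between 117 and 124 genes with at least 1000 TPM. All 12 hepatocyte markers had a mean of at least 1 CPM, from Hnf4a, the hepatocyte transcription factor, to Alb. Of 12 markers of pancreatic acinar and islet cells, 6 had no count in any library and Cela1 alone reached a mean of 1 CPM, with 7.79 to 14.1 CPM. None of 6 skeletal muscle markers and none of 5 kidney and adrenal markers reached that mean.

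A small set of genes held most of the transcripts. Between 55 and 64 genes held 50% of the TPM of a library, and between 1950 and 2229 genes held 90%. The 10 most abundant genes of each library took 18.1% to 21.02% of its TPM (mean 19.1% ± 1.35, SD, n = 4). Replicate 5 was the most concentrated library, with the smallest number of genes behind both shares. Counted in reads, which favour long transcripts, 113 genes held 50% in replicate 5 and 144 to 148 genes did so in the other libraries.

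**Figure D1:**
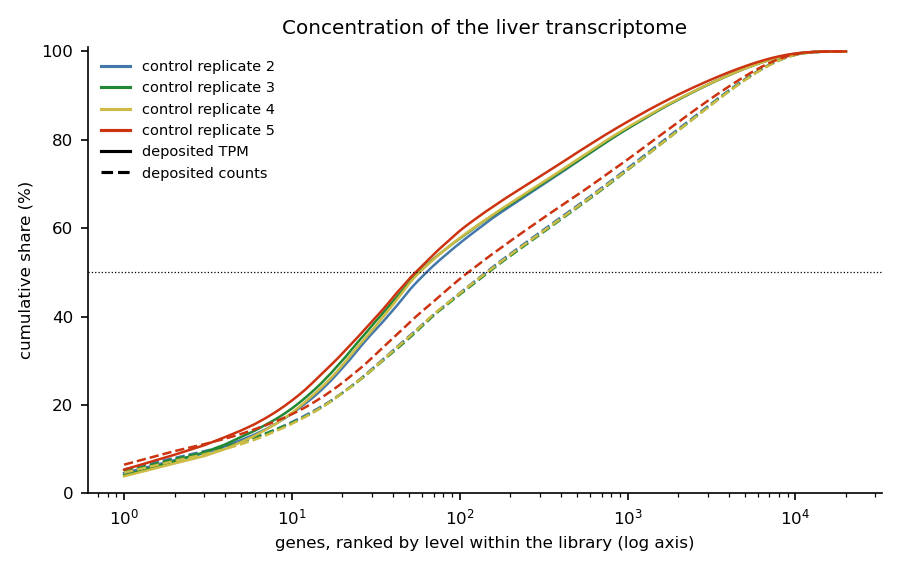
Cumulative share (%) of deposited TPM (solid) and of deposited counts (dashed) against gene rank on a log axis, 1 line per control library, with 50% dotted. The 4 libraries lie close together in TPM, where 55 to 64 genes reach 50%, and replicate 5 lies above the others in counts.

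Genes were sorted by symbol and annotated type into 28 exclusive classes. The 5 classes of secreted plasma proteins together took 23.5% ± 1.58 of the TPM (SD, n = 4). With the major urinary proteins added, the share was 36.5% ± 0.148 and ranged from 36.4% to 36.7%. In counts the same sum ranged more, from 30.04% to 32.8% (31.3% ± 1.16). The TPM sum of replicate 3 also holds Apoe at 20057 TPM, against 8609 to 9053 TPM elsewhere, a difference not seen in counts. The plasma classes and the major urinary proteins differed in opposite directions between libraries. Plasma proteins took 24.3% and 25.3% of the TPM in replicates 2 and 5, and 22.3% and 22.1% in replicates 3 and 4. Shares sum to a fixed total, so a class can be low in a library only because another is high.

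The 37 mitochondrially encoded genes took 15.2% of the TPM in replicate 2, 16.3% in replicate 3, 15.9% in replicate 4 and 17.8% in replicate 5. These genes encode core subunits of the respiratory chain and the RNAs that translate them. COX1, the catalytic subunit of cytochrome c oxidase, was the second most abundant transcript of the liver by mean level, with 29352, 31991, 29099 and 33813 TPM in replicates 2 to 5. ATP6, a subunit of ATP synthase, followed with 15722, 17293, 16057 and 21423 TPM. Replicate 5 was highest in COX1, ATP6, CYTB, COX2, COX3 and ND4, but lowest in ND2 and ND5. ND4, ND2 and ND5 are all subunits of complex I, so its genes did not differ in a single direction. In CPM, ND2 was lowest in replicate 3, at 8025 CPM against 8537 CPM in replicate 5. ND5 had 5775, 6594, 6872 and 5008 TPM. The nuclear genes of the respiratory chain took 1.58% ± 0.0464, and Atp5b, Atp5a1 and Ndufa4 led them.

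The major urinary protein class held 30 genes and pseudogenes, of which 29 had a mean of at least 1 TPM. Together they took 12.0%, 14.1%, 14.5% and 11.4% of the TPM in replicates 2 to 5, so that replicates 3 and 4 were above the other libraries. The level was spread over many members. Mup3 had 12298, 12215, 12455 and 13998 TPM. Mup11 had 10409, 12085, 12977 and 9772 TPM, and Mup7 had 10046, 11575, 13020 and 7791 TPM. In TPM, replicate 5 was thus highest in Mup3 and lowest in Mup11 and Mup7. In CPM, Mup11 was lowest in replicate 2, at 5408 CPM against 5557 CPM in replicate 5. The listed members summed to 61082, 71392, 74487 and 62921 CPM, also lowest in replicate 2. Mup20, the pheromone darcin that marks male urine, had 4664, 5223, 7018 and 5231 TPM. These genes are near-identical copies on chromosome 4, so reads may have been divided between them and values of single members are uncertain.

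The copies that could be compared were alike in a short stretch of their promoters. RefSeq (GRCm38.p6) gave a promoter for 14 of the genes, and 12 of these could be lined up on the letters TATATAA over a window of 50 bases. In that window 4 others were identical to Mup11 and the largest number of differences was 4. The windows of abundant members and of the scarce Mup6 and Mup4 are shown because they differ by few bases. Capitals mark a base that differs from Mup11, and all run 5′ to 3′ on the strand of the gene.
Mup11 (chr4:60662358-60662407, minus strand): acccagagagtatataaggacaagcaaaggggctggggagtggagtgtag
Mup2 (chr4:60139844-60139893, minus strand): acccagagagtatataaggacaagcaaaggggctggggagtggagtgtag
Mup3 (chr4:62087289-62087338, minus strand): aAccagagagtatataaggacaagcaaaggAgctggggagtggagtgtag
Mup21 (chr4:62150810-62150859, minus strand): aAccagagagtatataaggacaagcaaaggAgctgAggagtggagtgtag
Mup6 (chr4:60003442-60003491, plus strand): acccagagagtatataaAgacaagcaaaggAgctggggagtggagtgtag
Mup4 (chr4:59960657-59960706, minus strand): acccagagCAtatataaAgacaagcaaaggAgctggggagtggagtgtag
Mup6 had 2.73 to 5.91 TPM and Mup4 0 to 1.60 TPM, while Mup2 had 3053 to 4451 TPM and Mup21 had 431 to 511 TPM. A likeness of letters in this window says nothing of what else sets these levels.

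Albumin was the most abundant transcript in all 4 libraries. Alb (Entrez 11657, chr5:90460870-90476602), which encodes the main protein of plasma, had 45825, 40789, 38675 and 53649 TPM in replicates 2 to 5, a mean of 44734 ± 6657 (SD, n = 4). Alb was 3.87% of the TPM in the lowest library and 5.37% in the highest, replicate 5. Its whole class, with the vitamin D carrier Gc and the thyroxine carrier Ttr, took 5.91% ± 0.715. Ttr had 4637 to 6000 TPM and Gc had 4357 to 5400 TPM.

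Apolipoproteins, which build lipoprotein particles, took 5.37% ± 0.436 of the TPM. Apoc1 had 10073 to 12330 TPM, Apoa2 9887 to 12188 TPM and Apoa1 9109 to 12157 TPM, and each was highest in replicate 5. Apoe, the ligand by which particle remnants are taken up, had 9053, 20057, 8609 and 8960 TPM. Replicate 3 stood well above the others in TPM, but not in counts: Apoe had 15324, 14570, 14562 and 16569 CPM. The transcript length implied by count and FPKM was 1398 bases in replicate 3 and 3206 to 3248 bases in the other libraries, against 2244 to 2251 bases for Alb in all of them. Neat1, a nuclear noncoding RNA, behaved alike, with 47.0, 279, 182 and 46.2 TPM but 543, 587, 370 and 584 CPM. Among 10546 genes with at least 1 TPM and 100 counts in every library, 93 differed in the ratio of counts to TPM by over 0.5 on the log2 scale, and 9 by over 1. For these genes the spread in TPM is not a spread in reads.

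The other secreted classes were led by familiar hepatocyte products. Protease inhibitors took 5.19% ± 0.233, with Serpina1c at 8060 to 8947 TPM. Acute phase proteins and metal carriers took 4.29%, 3.602%, 4.46% and 4.53%, lowest in replicate 3, with Serpina3k at 9914 to 12390 TPM. Trf, the iron carrier of plasma, had 8625, 7739, 5956 and 7550 TPM, and Hp, which binds free haemoglobin, had 6335, 4122, 5875 and 5869 TPM. Coagulation and complement took 3.10%, 2.52%, 2.40% and 3.25%, and the fibrinogen chains Fgb, Fgg and Fga led the class.

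Enzyme classes took smaller shares. Conjugation and other xenobiotic enzymes held 3.50% ± 0.186, led by Mgst1 with 4597 to 5656 TPM. Urea cycle and amino acid genes held 2.38% ± 0.253, led by Bhmt, and cytochrome P450 genes held 2.25% ± 0.169, led by Cyp2e1 with 7333 to 9298 TPM. Fatty acid oxidation and ketogenesis took 1.99% ± 0.103, with Scp2 and Phyh among its leading genes. Lipid synthesis, binding and storage took 1.77% ± 0.194, most of it Fabp1, the fatty acid binding protein of liver, with 11889, 9173, 13646 and 9568 TPM. Carbohydrate metabolism had the narrowest spread in proportion, 1.34% to 1.40%.

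Chaperones and protein folding factors varied most among classes above 1%. They took 1.42% of the TPM in replicate 2, 1.83% in replicate 3, 1.199% in replicate 4 and 2.06% in replicate 5, which is 1.72-fold from lowest to highest. Haemoglobin varied most of all classes, with 0.0840%, 0.0429%, 0.0303% and 0.0340%, or 2.77-fold. The haemoglobin transcripts come from red blood cells, and replicate 2 was above the other libraries in all of Hbb-bs, Hbb-bt, Hba-a1 and Hba-a2. Protein-coding genes of no named class took 21.4% ± 0.923, led by Car3, Azgp1 and Uox. Long noncoding RNA took 0.438% ± 0.0149 and pseudogenes 0.748% ± 0.0283. Rn18s-rs5, an 18S ribosomal RNA entry, had 1055, 1172, 1366 and 519 TPM, lowest in replicate 5.

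**Figure D2:**
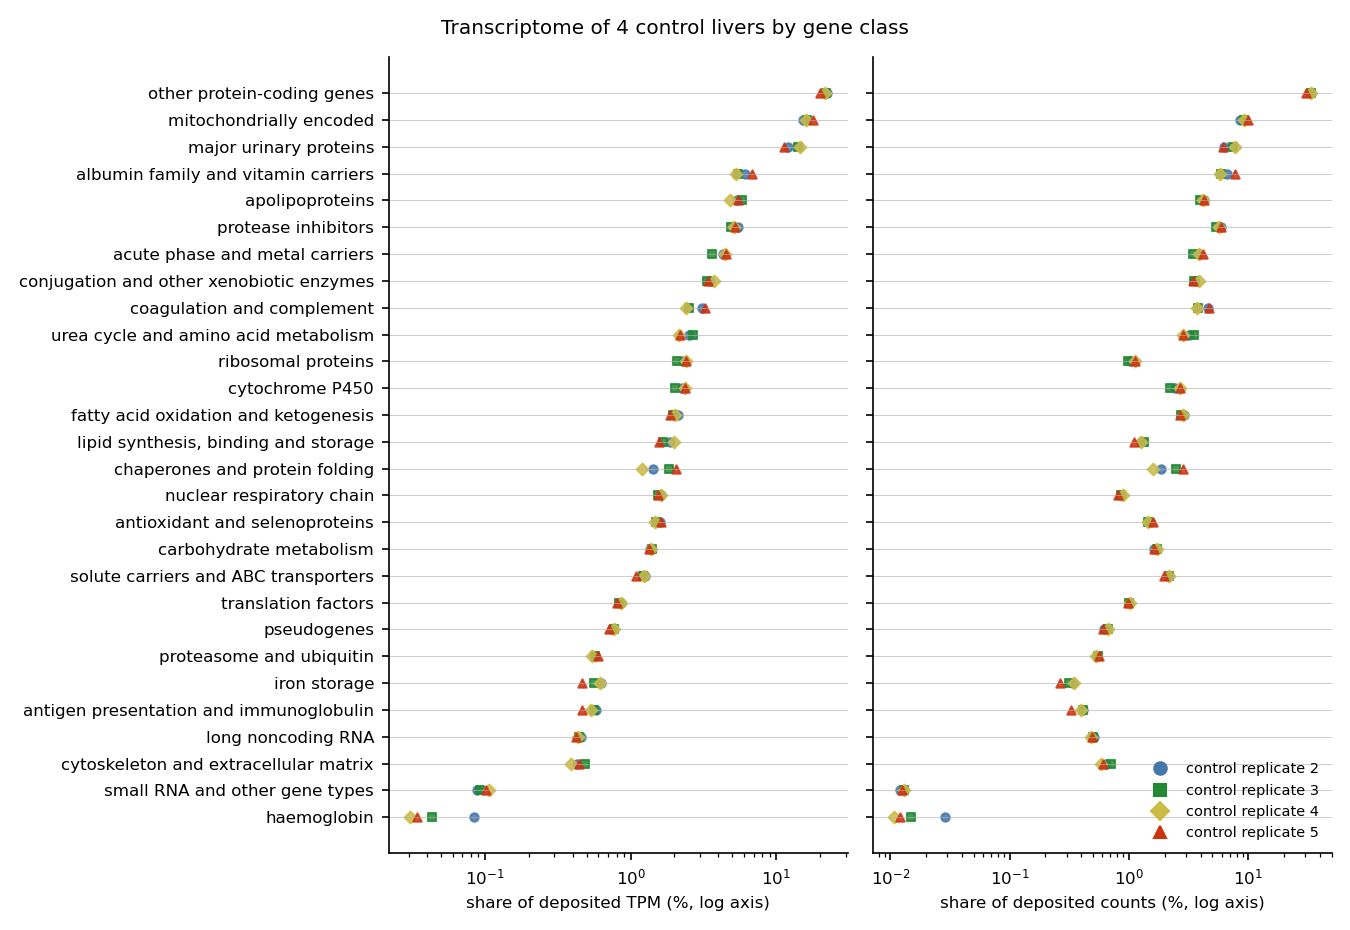
Share (%) of deposited TPM (left) and of deposited counts (right) held by each of 28 gene classes, on log axes, with 1 symbol per control library. The 4 symbols nearly coincide for most classes and separate for haemoglobin (0.0303% to 0.0840% of TPM) and for chaperones and protein folding (1.199% to 2.06%).

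Most genes differed little between these livers. Among 12534 genes with a mean of 1 CPM or more, the median SD of log2 CPM was 0.20, with quartiles of 0.13 and 0.31, and the median SD expected from counting error alone was 0.0505. An SD of 0.5, a factor of 1.41 for 1 SD, was exceeded by 1001 genes, which are termed variable here, and an SD of 1 by 75 genes. Variable genes were 13.6% of genes with a mean of 1 to 10 CPM and 4.24% of those with 10 to 100 CPM. They held only 4.08% to 4.38% of all counts. With 4 values the 95% interval of an SD runs from 0.566 to 3.73 times the estimate, so single genes near 0.5 cannot be placed on either side.

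**Figure D3:**
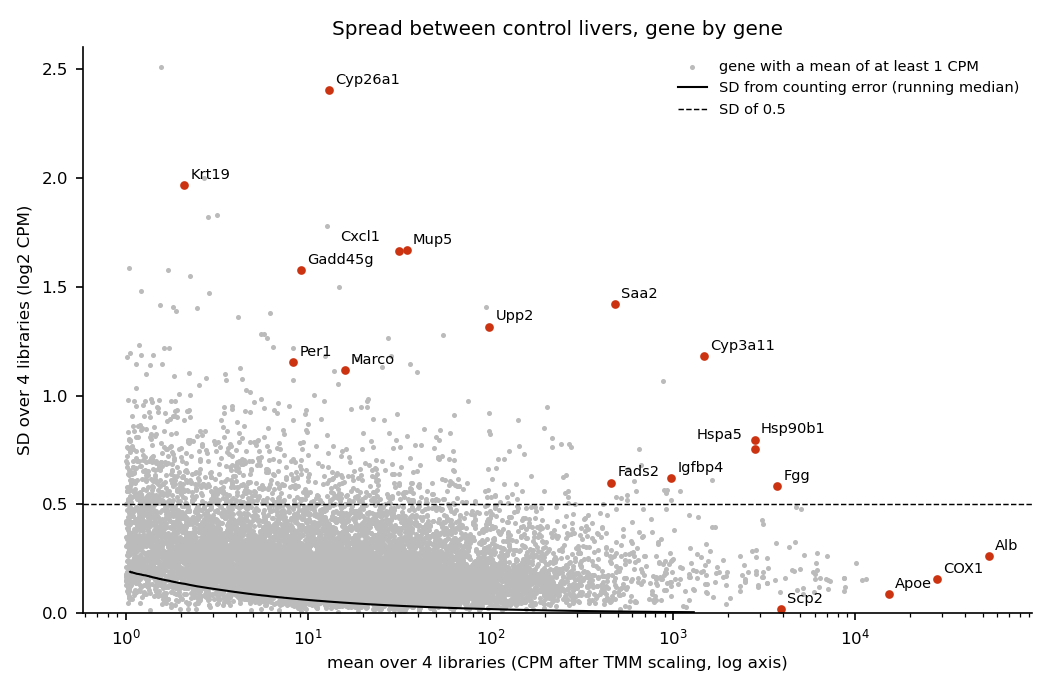
SD over 4 control libraries (log2 CPM) against mean CPM on a log axis for 12534 genes (grey), with the running median of the SD from counting error (line), an SD of 0.5 (dashed) and some named genes (red). The 5 genes with an SD above 2.6, among them Dmbt1, lie above the axis, and most genes lie between the line and 0.5.

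Among genes averaging 100 CPM or more, Ugt1a6a, a glucuronosyltransferase, had the smallest SD, 0.016, with 114 to 117 CPM. Scp2, the peroxisomal sterol carrier and thiolase, had 3869, 3894, 3948 and 3984 CPM and an SD of 0.019. C1s1, Suclg1, Trap1, Ctnnb1, Ppp2ca, Ddx6, Hsd17b4 and Dennd5b completed the lowest 10, with SDs of 0.020 to 0.029. These 10 were chosen for their small SD. Of 12 genes often used as references for quantitative PCR none was variable, and 1 was without replicate 3. Their median SD was 0.15, against 0.20 for all genes. Actb, cytoplasmic actin, had the largest SD of the 12, 0.44, with 605, 779, 552 and 1082 CPM.

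The genes with the largest spread differed in pattern, and some were high in a single liver. Dmbt1 (Entrez 12945, chr7:131032057-131121628), a secreted scavenger glycoprotein of epithelia, had 0.149, 158, 0.0472 and 0 CPM. In counts this was 8, 8355, 3 and 0. Muc3, a membrane mucin, had 446 counts in replicate 3 and Serpina3e-ps 287, and neither had a count elsewhere. Replicate 3 alone held all 3 transcripts. Krt19, a keratin of bile duct cells, had 0.651, 6.81, 0.660 and 0.246 CPM and was likewise highest in replicate 3. The 7 cholangiocyte markers summed to 29.7, 43.3, 24.9 and 30.3 CPM, and 1 of 7 was at 0 throughout. All 4 members above a mean of 1 CPM were highest in replicate 3, as were 19.3% of all genes with at least that mean. Without replicate 3 only 2 markers kept that mean, so this count is partly set by the filter. The part of the cholangiocyte markers in the Dmbt1 and Muc3 values was not tested. In bulk tissue, more cells of a type and more RNA per cell cannot be told apart.

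Replicate 4 stood out by a further set. Cyp26a1 (Entrez 13082, chr19:37697738-37701536), which breaks down retinoic acid, had 1.47, 1.32, 46.4 and 2.596 CPM, a 35.1-fold range. Onecut1, a transcription factor of liver development, had 5.95, 4.61, 43.0 and 5.76 CPM. Serpina4-ps1, a pseudogene, had 63.4, 29.2, 253 and 35.1 CPM. In each of these 3 genes the other libraries lay far below replicate 4. H2aw, Slc15a2 and Eps8l1 went the other way, and were lowest in replicate 4 with 0.0315, 0.330 and 0.299 CPM.

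In replicate 5, Cxcl1, Gadd45g and Prtn3 were high. Cxcl1, a chemokine that attracts neutrophils, had 23.3, 8.89, 6.71 and 86.6 CPM. Gadd45g, a stress-inducible growth regulator, had 2.97, 3.25, 2.92 and 27.4 CPM. Prtn3, a protease of neutrophil granules, had 1.93, 0.927, 0.818 and 7.83 CPM. Replicate 5 exceeded the highest other library by several fold in each. The neutrophil markers summed to 7.03, 5.81, 4.86 and 8.41 CPM, with 2 of 7 above a mean of 1 CPM. Both were highest in replicate 5, as were 35.6% of all genes with at least that mean. The part of the neutrophil markers in the values of Cxcl1, Gadd45g and Prtn3 was not tested. Ddr1, a collagen receptor, had 1.43, 1.85, 1.38 and 0.171 CPM, and Msln, a marker of mesothelium, 0.911, 2.35, 0.786 and 0.133 CPM. Replicate 5 was lowest in both.

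Other genes split the livers 2 against 2. Cish, an inhibitor of cytokine signalling induced through STAT5, had 2.96, 2.42, 23.02 and 22.6 CPM, low in replicates 2 and 3. Serpina3h had 0.669, 0.454, 6.45 and 3.77 CPM, in the same order of pairs. Mup5 had 6.69, 61.0, 60.8 and 10.6 CPM, low in replicates 2 and 5. Evi2 had 2.05 and 2.69 CPM in replicates 2 and 5 and no count in the others. Mup5 was the only one of 21 listed major urinary proteins with an SD above 0.5 (2 of 21 without replicate 3 or without replicate 5), and the median SD of that list was 0.17. The pairs of livers thus differed from gene to gene.

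**Figure D4:**
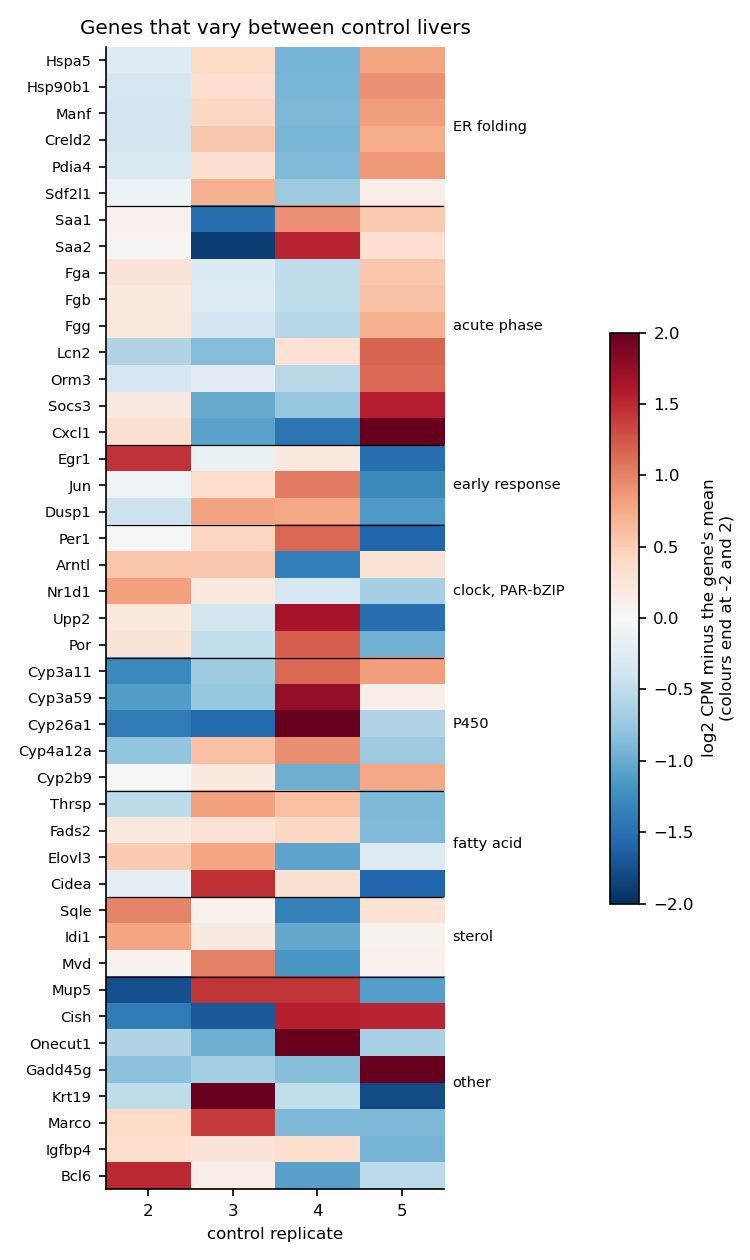
Log2 CPM minus the mean of the gene over the 4 control libraries (colour, ending at -2 and 2) for 43 named genes, grouped by list, with 1 column per library. ER folding genes are low in replicate 4 and high in replicate 5, and Krt19 and Marco are high in replicate 3.

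Gene lists were described by their variable members and by the library in which members were highest or lowest. For all genes the share with an SD above 0.5 was 7.99%, and the counts below are read against it. Over the same genes, replicates 2 to 5 were the highest library in 19.04%, 19.3%, 26.05% and 35.6%, and the lowest in 19.2%, 23.4%, 22.4% and 35.0%. In the endoplasmic reticulum (ER) stress list, 12 of 20 members were variable, with a median SD of 0.53. The summed level of the list was 9424, 13584, 6822 and 17864 CPM, a 2.62-fold range. Of the 20 members, 14 were lowest in replicate 4 (22.4% of all genes) and 13 highest in replicate 5 (35.6% of all genes). Without replicate 5, 10 of 20 were still variable, and without replicate 4, 7 of 19.

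Chaperones of the ER were among the variable members. Hspa5 (BiP, Entrez 14828, chr2:34772090-34776529), which holds unfolded proteins in the ER lumen, had 2130, 3357, 1339 and 4404 CPM and an SD of 0.76. Hsp90b1, the ER member of the HSP90 family, had 1993, 3150, 1325 and 4746 CPM, and Pdia4, a disulfide isomerase, had 483, 740, 321 and 1076 CPM. The order of the libraries was the same in all 3, with replicate 4 lowest, then 2, 3 and 5. Creld2 with 189, 355, 129 and 409 CPM and Manf with 170, 292, 118 and 392 CPM, both secreted ER stress proteins, kept that order too. Sdf2l1 and Hyou1 did not, since replicate 3 was highest in both, at 115 and 676 CPM. Atf4, a transcription factor of the same list, had 69.0 to 82.9 CPM with an SD of 0.11, and Asns, an amino acid synthesis gene it activates, was highest in replicate 4 at 2.78 CPM.

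Some promoters of the ER list held the ER stress response element, the letters CCAAT, 9 bases of any kind, then CCACG. It was searched on both strands from 250 bases before to 50 after each gene start in RefSeq (GRCm38.p6). It was found in 37 of 27025 genes, 0.137%, and in 7 of the 18 list members with a promoter entry: Calr, Canx, Creld2, Dnajc3, Hsp90b1, Hspa5 and Pdia6. Stretches of 80 bases are shown for 5 of them, and Canx and Dnajc3 are not shown. The 5 were chosen because their transcripts varied in the same order between these livers, so their shared order says nothing of the element. Capitals mark the end letters of the element, which read CGTGG and ATTGG where it lies on the opposite strand.
Hspa5 (chr2:34772005-34772084, plus strand): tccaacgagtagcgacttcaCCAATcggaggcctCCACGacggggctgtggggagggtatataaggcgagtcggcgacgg
Hsp90b1 (chr10:86705597-86705676, minus strand): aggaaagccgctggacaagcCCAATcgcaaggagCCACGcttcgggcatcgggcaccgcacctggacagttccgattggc
Creld2 (chr15:88819500-88819579, plus strand): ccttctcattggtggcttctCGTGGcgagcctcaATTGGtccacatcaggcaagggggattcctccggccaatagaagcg
Pdia6 (chr12:17266471-17266550, plus strand): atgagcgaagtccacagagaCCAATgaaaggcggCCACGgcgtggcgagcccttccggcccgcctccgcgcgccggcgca
Calr (chr8:84847034-84847113, minus strand): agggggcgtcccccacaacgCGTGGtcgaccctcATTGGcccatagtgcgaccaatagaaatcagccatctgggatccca
Pdia6 had 337, 437, 263 and 551 CPM, and Calr had 1195, 1512, 916 and 1864 CPM. Both followed the order of Hspa5 with smaller SDs, 0.46 and 0.44. Pdia4, Sdf2l1 and Dnajb9 have no such letters in the window and had SDs of 0.76, 0.60 and 0.66, so members with and without these letters varied.

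In the heat shock list 4 of 14 members were variable, 2 of 14 without replicate 3, with a median SD of 0.39. Hspa8, the constitutive HSP70, had 1260, 1716, 1456 and 2391 CPM, again highest in replicate 5. Hspa1a and Hspa1b, the inducible copies, were highest in replicate 3 with 6.17 and 15.2 CPM and are near-identical to each other. The mitochondrial chaperones Hspd1 and Hspe1 had SDs of 0.11 and 0.13.

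Acute phase genes, which the liver makes under inflammatory signals such as interleukin 6, were variable in 8 of 25 cases with a median SD of 0.43. The list summed to 36991, 26181, 30289 and 46858 CPM. Replicate 5 was the highest library in 20 of 25 members (35.6% of all genes) and replicate 3 the lowest in 15 (23.4% of all genes). Without replicate 5, 3 of 25 were variable, and without replicate 2, 13 of 25. The fibrinogen chains followed each other: Fga had 5799, 4025, 3401 and 7032 CPM, Fgb had 5191, 3791, 3191 and 6831 CPM, and Fgg had 4091, 2690, 2361 and 5737 CPM. Replicates 2 and 5 were above replicates 3 and 4 in all 3 chains. Lcn2, which sequesters bacterial iron carriers, had 55.8, 46.4, 103 and 189 CPM, and Orm3, an orosomucoid, had 9.44, 10.4, 8.19 and 26.5 CPM. Socs3, a feedback inhibitor of the interleukin 6 receptor, had 16.2, 7.09, 8.43 and 42.4 CPM and was also highest in replicate 5.

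Serum amyloid A did not follow fibrinogen. Saa2 (chr7:46751833-46754313) had 367, 95.05, 1018 and 446 CPM, and Saa1 had 791, 261, 1402 and 1070 CPM. Replicate 4 was highest and replicate 3 lowest in both, and the range was 10.7-fold for Saa2. These neighbours are close copies, so reads may have been divided between them. Hamp, the iron hormone hepcidin, ran in another order again with 497, 380, 324 and 250 CPM, highest in replicate 2.

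Immediate early genes, which respond within minutes to growth factors and stress, had the largest median SD of the lists in which at least 4 members had a mean of 1 CPM, 0.68, with 9 of 14 members variable. Replicate 5 was lowest in 8 of 14, against 35.0% of all genes. Egr1 had 17.6, 5.86, 7.42 and 2.24 CPM, Jun had 17.03, 23.1, 36.9 and 7.39 CPM, and Dusp1 had 12.5, 29.4, 28.8 and 7.69 CPM. Replicate 5 was lowest in each, but the highest library differed. Myc had 2.83, 1.78, 3.52 and 6.39 CPM and was highest in replicate 5 instead. Without replicate 5, 5 of 14 were variable. Zfp36, Btg2 and Atf3 of the same list had SDs of 0.09, 0.13 and 0.11.

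The circadian clock is a loop in which ARNTL and CLOCK activate the Per and Cry genes, whose products then repress them. In the core clock list 5 of 18 members were variable, and 3 of 18 without replicate 4. Arntl had 4.50, 4.48, 1.16 and 3.71 CPM, lowest in replicate 4. Per1 had 6.82, 9.08, 14.95 and 2.24 CPM, Ciart had 3.09, 4.20, 9.50 and 4.98 CPM, and Per3 had 26.2, 26.1, 45.6 and 27.1 CPM. All 3 were highest in replicate 4. Nr1d1, a repressor of Arntl, was highest in replicate 2, with 61.7, 40.1, 27.4 and 22.2 CPM. Cry2, Hlf and Rora had SDs of at most 0.06. In the clock output list 7 of 18 were variable and 10 of 18 were highest in replicate 4 (26.05% of all genes). Upp2, a uridine phosphorylase, had 84.2, 55.9, 229 and 25.5 CPM. Por, which feeds electrons to cytochrome P450, had 209, 123.1, 399 and 89.1 CPM, and Alas1, the first enzyme of haem synthesis, had 430, 534, 1052 and 435 CPM.

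The E-box CACGTG, to which ARNTL and CLOCK bind, was found on either strand of the same window in 2187 of 27025 genes, 8.09%. Among genes with a promoter entry, it was found in 5 of 16 core clock genes and in 2 of 13 clock output genes. Not all core clock genes with an E-box are shown. The stretches of Per1 and Ciart are shown because both were highest in replicate 4, with the first E-box in capitals.
Per1 (chr11:69098753-69098832, plus strand): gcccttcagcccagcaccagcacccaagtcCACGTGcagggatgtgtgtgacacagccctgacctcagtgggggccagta
Ciart (chr3:95882295-95882374, minus strand): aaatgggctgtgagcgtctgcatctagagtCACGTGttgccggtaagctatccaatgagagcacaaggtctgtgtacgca
The window of Ciart held 3 E-boxes in all and that of Per1 held 1. The match is one of letters and was read from no binding data.

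The xenobiotic cytochrome P450 list summed to 13083, 11536, 16286 and 15042 CPM, a 1.41-fold range. In it 5 of 13 members were variable, and 3 of 13 without replicate 4. Cyp3a11 (Entrez 13112, chr5:145854607-145879854), a broad drug-metabolising enzyme, had 483, 722, 2618 and 2106 CPM, a 5.42-fold range and the largest spread among abundant members. Cyp3a25 had 363, 354, 902 and 651 CPM, Cyp3a59 had 18.3, 23.4, 134 and 42.7 CPM, and Cyp3a44 had 5.26, 8.36, 25.2 and 19.9 CPM. All 4 Cyp3a genes named were higher in replicates 4 and 5 than in replicates 2 and 3. Their copies are similar, so reads may have been divided between them. Cyp2e1 had 9131, 7325, 9441 and 8599 CPM and an SD of 0.16.

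Genes that differ between male and female liver through the pulses of growth hormone included variable members, and all mice were male per the labels. Of 11 female-biased genes averaging 1 CPM or more, 7 were variable, 3 of 11 without replicate 4, and 9 of the 20 listed did not reach that mean. Cyp2b9 had 141, 160, 70.5 and 238 CPM, and Cyp2b13 had 2.38, 5.98, 0.896 and 7.20 CPM. Both were lowest in replicate 4 and highest in replicate 5, but the list did not run in a single direction. Of the 11 female-biased genes, 6 were lowest in replicate 4 (22.4% of all genes) and 4 were highest there (26.05% of all genes). Another 4 were highest in replicate 5 (35.6% of all genes). Among male-biased genes 3 of 16 were variable, and 5 of 16 without replicate 2. Cyp4a12a, an arachidonic acid hydroxylase, had 71.9, 187, 235 and 74.5 CPM, and Cyp4a12b had 30.4, 56.8, 93.7 and 36.5 CPM. Replicates 3 and 4 were above replicates 2 and 5 in both, the same split as in Mup5.

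Fatty acid synthesis genes were variable in 7 of 21 cases, and 13 were highest in replicate 3 (19.3% of all genes). The count was 4 of 21 without replicate 5, 12 without replicate 2 and 11 without replicate 4, and the median SD of 0.45 was 0.20 without replicate 5. Fasn, fatty acid synthase, had 84.7, 161, 69.5 and 71.8 CPM, and Scd1, which puts the double bond into stearate, had 827, 1541, 629 and 729 CPM. Replicate 3 was well above the other 3 in both. Thrsp had 60.3, 154, 132 and 46.9 CPM, and Fads2, a desaturase of polyunsaturated fatty acids, had 494, 528, 577 and 234 CPM, lowest in replicate 5. Sterol synthesis genes were variable in 6 of 25 cases, with 16 highest in replicate 2 (19.04% of all genes) and 16 lowest in replicate 4 (22.4% of all genes). Without replicate 3, 11 of 25 were variable. Sqle, squalene epoxidase, had 9.41, 5.05, 1.82 and 5.76 CPM, and Idi1 had 25.2, 16.7, 7.15 and 15.3 CPM. Cidea, a lipid droplet protein that is scarce in lean liver, had 4.02, 12.7, 5.66 and 1.497 CPM.

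Fasting and fuel lists differed in variable members, against 7.99% of all genes. The counts were 5 of 17 for gluconeogenesis and FOXO, 4 of 28 for fatty acid oxidation and ketogenesis, and 2 of 16 for glycolysis and glycogen. They were 5 of 21 for hepatokines and the insulin-like growth factor axis, and 1 of 26 for urea cycle and amino acid breakdown. With a library left out, these 5 lists had as few as 3, 2, 0, 3 and 0 variable members. G6pc, which releases glucose, had 100.7, 241, 112 and 140 CPM, and Bcl6, a transcriptional repressor, had 87.2, 34.1, 14.6 and 21.4 CPM. Replicate 3 was highest in the first and replicate 2 in the second. Fgf21, a hormone of fasting liver, had 7.399, 5.45, 15.5 and 3.16 CPM. Gdf15, a stress hormone, had 10.8, 5.90, 7.61 and 1.52 CPM. Igfbp4, which binds insulin-like growth factors, had 1165, 1103, 1173 and 486 CPM, and replicate 5 was the single low library in an otherwise even gene. Ass1 of the urea cycle had 1107, 1207, 763 and 510 CPM.

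No member was variable among 25 nuclear respiratory chain genes and 26 cytosolic ribosomal proteins, with median SDs of 0.11 and 0.13 against 0.20 for all genes, and 1 respiratory chain gene was without replicate 3. Their small differences still ran in 1 direction for many members. Of the 26 ribosomal protein genes, 22 were highest in replicate 5 (35.6% of all genes) and 20 lowest in replicate 3 (23.4% of all genes). Of the 25 respiratory chain genes, 13 were highest in replicate 5 and 12 lowest in replicate 3. The 16 bile acid genes and 12 hepatocyte markers also had no variable member, with median SDs of 0.22 each, and lists of this size would hold few at the share of all genes. Lipoproteins and apolipoproteins had 1 variable member of 18, near that share, and 0 of 18 without replicate 4 or without replicate 5. It was Apoa4, with 540, 607, 974 and 378 CPM.

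**Figure D5:**
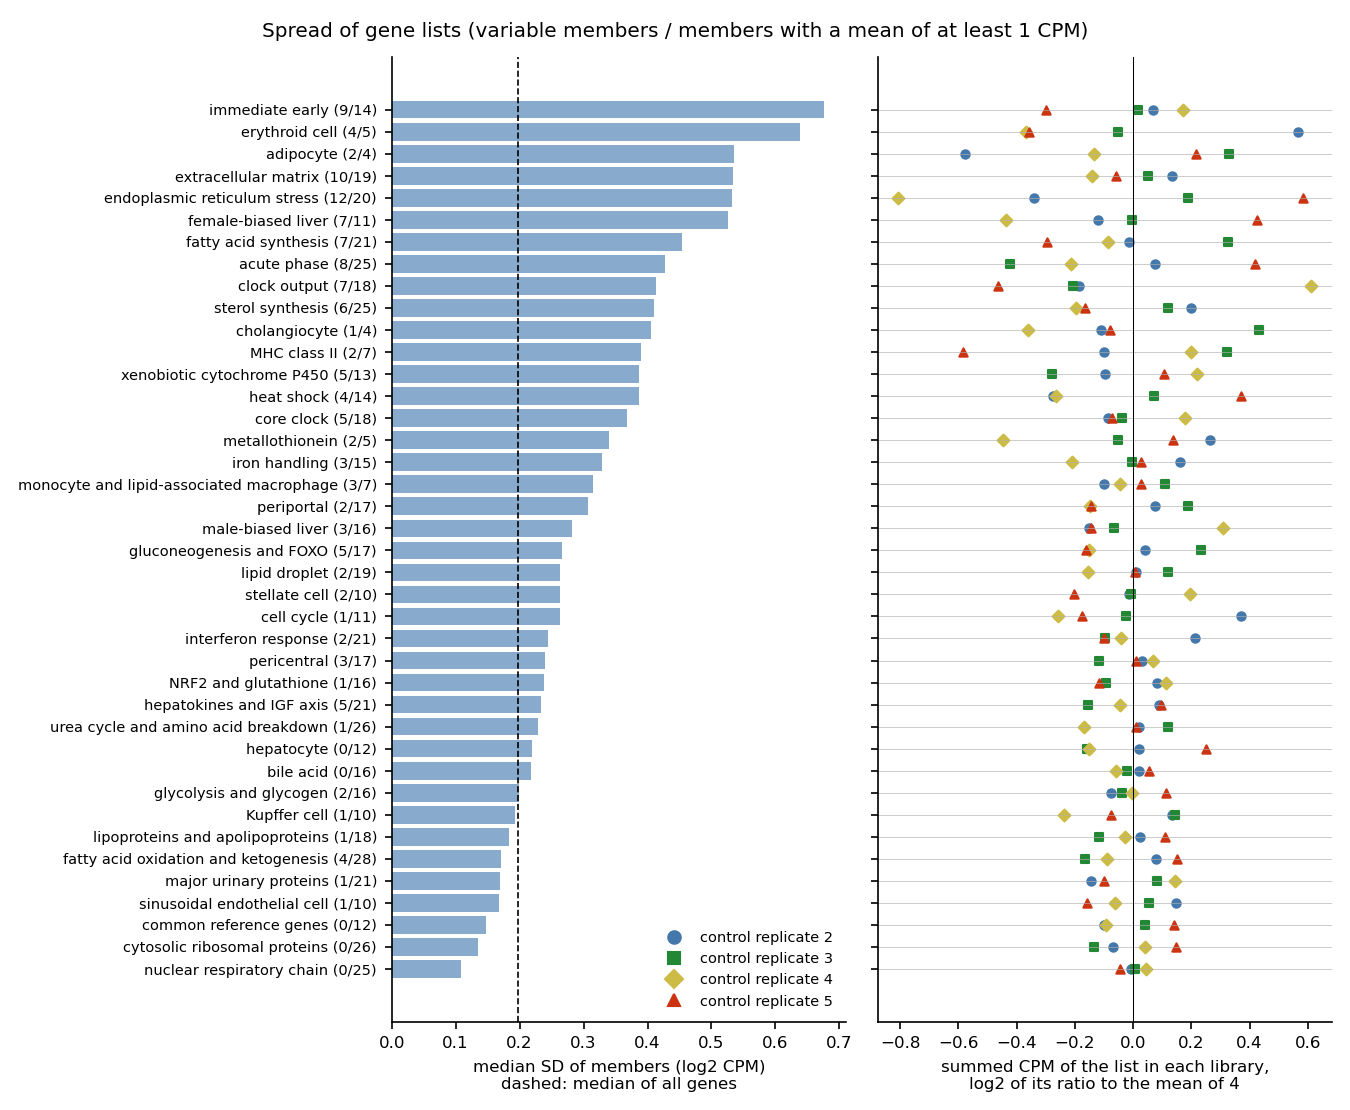
Left, median SD (log2 CPM) of the members of each gene list with at least 4 members above a mean of 1 CPM, with the median of all genes dashed and the variable and measured members in brackets. Right, log2 of the summed CPM of the list in each control library over the mean of the 4; ER stress spans 6822 to 17864 CPM and the nuclear respiratory chain only 4143 to 4403 CPM.

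Markers of other cell types differed in spread. Kupffer cell markers summed to 458, 462, 354 and 396 CPM, sinusoidal endothelial markers to 335, 314, 289 and 271 CPM, and stellate cell markers to 395, 396, 456 and 346 CPM. All 10 markers of each list had a mean of at least 1 CPM. Kupffer cell markers were lowest in replicate 4 in 9 of 10 cases, against 22.4% of all genes. Marco, a scavenger receptor of Kupffer cells, was the only variable member of its list, with 16.7, 33.3, 6.73 and 6.75 CPM. The lineage receptor genes Clec4f and Csf1r were not variable. Stellate markers were lowest in replicate 5 in 8 of 10 cases, against 35.0% of all genes. In the extracellular matrix list 10 of 19 members were variable and 12 were lowest in replicate 5 (35.0% of all genes). Col1a1 had 3.25, 5.28, 8.82 and 1.95 CPM and Col1a2 had 8.51, 11.6, 15.3 and 4.00 CPM, both highest in replicate 4. Without replicate 5, 4 of 19 were variable. The part of the stellate cell markers in these values was not tested. Cd74, the invariant chain of MHC class II, had 38.1, 47.8, 43.2 and 16.2 CPM.

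Erythroid markers summed to 372, 243, 195 and 196 CPM, highest in replicate 2, as haemoglobin was. They were variable in 4 of 5 cases and in 0 of 5 without replicate 2. Adipocyte markers summed to 70.0, 131, 95.1 and 121 CPM, a 1.87-fold range, with 2 of 4 variable. MHC class II genes summed to 80.5, 108, 99.1 and 57.6 CPM, lowest in replicate 5, with 2 of 7 variable and 1 of 7 without replicate 5. Markers of monocytes and lipid-associated macrophages summed to 43.1, 49.9, 44.8 and 47.1 CPM, with 3 of 7 variable.

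Replicate 5 departed most from the others. It was the library farthest from the median of the other 3 in 6067 of 12534 genes, 48.4%, and in 566 of the 1001 variable genes, 56.5%. It was lower in 3151 and higher in 2916 of the 6067, and lower in 494 and higher in 72 of the 566. Replicate 4 was farthest in 236 variable genes, replicate 3 in 113 and replicate 2 in 86. The first principal component of log2 CPM, 53.6% of the variance, set replicate 5 apart at a score of 38.2 against -9.84, -11.3 and -17.05, and the second, 28.7%, separated replicates 3 and 4. The median difference of a gene between 2 libraries was 0.27 to 0.28 on the log2 scale for pairs with replicate 5, and 0.15 to 0.18 for the others.

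Transcript length differed with the direction of departure, in replicate 5 and in other libraries. The 494 genes that were low in replicate 5 had a median implied length of 3580 bases, the 72 that were high 2641 bases, and all genes 3208 bases. Replicate 5 was the lowest library for 24.7% of the 2507 genes with the shortest transcripts and for 41.5% of the 2507 with the longest. Its median departure there was 0.09 and -0.07 on the log2 scale. Replicate 3 departed by -0.07 in the shortest. Variable genes farthest in replicate 3 had median lengths of 3521 bases where higher and 2521 bases where lower. The same medians were 3830 and 2951 bases in replicate 2, and 3108 and 3001 bases in replicate 4. The part of length, and of the title without an ending, in the values of replicate 5 was not tested, and the title ending cannot be told apart from this library. Without replicate 5, 577 genes exceeded an SD of 0.5.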

How the data were processed

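Liver RNA was sequenced from 4 control and 4 C2-AKT libraries, of which only the control libraries were used. The submitters' processing notes name the tools StringTie 2.1.3b, HISAT2 2.1.0, Trimmomatic and bcl2fastq 2.20.0 and the builds mm10 and GRCm38. For settings, strandedness and the counting method, the sources used here give nothing. The authors deposited estimated counts, which are whole numbers and raw, with total counts of 51.4 to 62.2 M per control library. The deposited FPKM values are, per the file headers, levels scaled to transcript length and depth, and were used here only with the counts to obtain an implied transcript length. Each control library has deposited TPM values with a sum of 999908 to 999946. All 24 value columns were matched to a library by title, and 45679 of 45777 identifiers to RefSeq GRCm38.p6, the source of coordinates and promoters.

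CPM values use library sizes scaled by TMM in edgeR 4.0.16 over the 4 libraries, and log2 CPM adds a prior count of 2. No comparison between groups was tested, since there is 1 group, and Dixon's criterion was used only to flag single libraries. The SD expected from counting error was taken from the counts and covers counting error only. The pairs of libraries differed far beyond counting error, so no library was treated as a duplicate of another. The SD calculation was run on simulated counts whose spread was set in advance, which concerns the calculation only and says nothing of these livers. A library departs by its distance from the median of the other 3. Classes follow gene symbols (24 classes) and annotated type, and 46 gene lists were used, 14 of them cell type markers. The members, lists and classes were chosen with earlier results of these data known. The mitochondrial tRNA genes were added to their class, and the list of common reference genes was added, after values were seen.

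Genes named are the 20 with the highest mean TPM, up to 3 per class, the 20 with the largest SD (antigen receptor segments and symbols of the Gm, Rik and LOC kinds left out), up to 4 per list with the largest SD, the 10 with the smallest SD at a mean of at least 100 CPM, the 5 of largest departure in each library, and other-tissue markers with a mean of at least 1 CPM. Not all are printed, and some items withheld for evaluation are not reported here. Chosen after their values were seen were Alas1, Atf3, Atf4, Btg2, Calr, Canx, Clec4f, Clock, Cry2, Csf1r, Dnajb9, Dnajc3, Fasn, Hamp, Hlf, Hspd1, Hspe1, Hyou1, Mup2, Mup4, Mup20, Mup21, Myc, ND5, Pdia4, Pdia6, Per3, Rora, Scd1, Sdf2l1 and Zfp36. Alternatives were other scalings (library totals, upper-quartile factors and the size factors of DESeq2), counts in place of TPM, TPM in place of counts, other filters, a correction for counting error and each library left out.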

Additional observations from a re-analysis of the deposited data

Results flagged for a closer look

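In 30 class shares (2 of them sums of classes), 44 list sums and 151 genes printed, 20 items had 1 library whose gap to its nearest neighbour took more of the whole range of the 4 than Dixon's 95% critical value allows. Chance gives about 1 in 20 such groups where the items are not chosen by their values. Many of the genes were chosen for a large SD or a large departure of 1 library, so that rate does not apply to them, and their values are a description. No class share was among them.

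In replicate 3, Dmbt1 (158 CPM), Muc3 (8.43 CPM), Serpina3e-ps (5.43 CPM), Krt19 (6.81 CPM) and Fasn (161 CPM) stood above the other libraries. In replicate 4, Cyp26a1 (46.4 CPM), Onecut1 (43.0 CPM), Serpina4-ps1 (253 CPM), Per3 (45.6 CPM) and Alas1 (1052 CPM) stood above, Clock (40.3 CPM, against 56.8 to 58.6 CPM elsewhere) stood below, and the male-biased list summed to 17602 CPM against 12784 to 13559 CPM. In replicate 5, Gadd45g (27.4 CPM), Prtn3 (7.83 CPM), Orm3 (26.5 CPM), COX3 (6851 CPM), Mup3 (8083 CPM) and Mup4 (0.891 CPM) stood above and Igfbp4 (486 CPM) below. In replicate 2 no gene was among them, and the interferon response list summed to 650 CPM against 523 to 545 CPM.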

How the results depend on the processing

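No paired analysis was possible because only 1 group was described. The share of a class depended on the unit. In counts in place of TPM, the mitochondrially encoded genes took 9.20%, major urinary proteins 6.92%, apolipoproteins 4.14%, chaperones 2.19% and other protein-coding genes 32.8%; 137.5 genes on average held 50%, and the top 10 took 16.4%. Without the 20 most abundant genes these classes held 3.29%, 12.0%, 1.34%, 2.32% and 30.5%, and the albumin class 2.05%. None of 28 class shares moved by over 1 SD when a library was left out. A mean of so few libraries cannot move that far, so this shows nothing of their stability. The number of variable genes was 942 to 1184 under the other scalings, 928 after the correction for counting error and 1172 with log2(TPM + 0.1), but 600 with log2(TPM + 1), 327 at a mean of at least 10 CPM and 7187 with no filter but 1 count. Leaving out each library gave 577 (without replicate 5) to 1325. Of the 100 most variable genes, 94 to 99 remained under the other scalings and 97 after the correction, but 56 with log2(TPM + 1), 53 with log2(TPM + 0.1), 30 at 10 CPM and 9 with no filter. Between 57 (without replicate 5) and 79 remained when a library was left out. Fewer or more genes enter under another filter, and TPM also holds the length estimate of each library; other causes were not tested. Replicate 5 was the farthest library in 56.3% of variable genes with DESeq2 size factors and in 63.3% with library totals. The median SD of a list moved by more than the spread among the SDs of its members in 6 of 502 comparisons. That limit is wide, so the count says little of the stability of a list. The median of the lymphocyte markers went from 0.56 to 0.18 with log2(TPM + 1) and was not among the 6. The correction for counting error changed the number of variable genes from 1001 to 928. Variable genes were 13.6% of those with a mean of 1 to 10 CPM and 4.24% of those with 10 to 100 CPM. The part of depth was not tested. The small number of libraries leaves a wide interval around each SD.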
